A study of Mus musculus with 12 samples.

Results

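The proteins described here carry out or steer pre-mRNA splicing: the SR proteins and their relatives, the proteins of the small nuclear ribonucleoproteins (snRNPs), the SF3 and U2AF subunits, the Prp factors and the Lsm proteins. They were chosen by name, as every probe that is no control and whose gene name on the array begins with Sfrs, Srsf, Sf3a, Sf3b, Snrp, Prpf or U2af, or with Lsm and a digit. This rule took 128 probes of 67 genes, out of 41174 probes and 27665 gene names. Of the 67 genes, 63 passed the filter on dim and incomplete probes and were tested, each on the probe of highest mean. Snrpn was not well above background on any array, and Lsm10, Snrpd2 and Srsf9 had too many spots that Feature Extraction, the scanner's software, marked as outliers. The tested genes were 15 SR and SR-related genes of 16, 11 snRNP genes of 13, 13 SF3 and U2AF genes of 13, 13 Prp genes of 13 and 11 Lsm genes of 12. Several older names on the array stand for genes now named otherwise, among them Sfrs10 for Tra2b, Sfrs16 for Clasrp, Sfrs2ip for Scaf11, Sfrs15 for Scaf4 and Snrp1c for Snrpc.

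Introns are removed by the spliceosome, which assembles from the U1, U2, U4, U5 and U6 snRNPs. U2AF and the SF3 complexes mark the branch site and the 3′ splice site, Prp factors bring in the U4/U6.U5 tri-snRNP and remodel it, and SR proteins bind exonic sequences and promote use of the nearby sites. Members of the hnRNP family, to which Hnrnpa0 belongs, bind nascent and mature RNA and often oppose SR proteins at splice sites. Whether the splicing genes moved when Hnrnpa0 was reduced was the question put to these data.

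The samples came from PUER, a mouse myeloid line without endogenous PU.1 that grows in IL-3 and carries PU.1 fused to the hormone-binding part of the estrogen receptor. All cells had taken up a retrovirus and had been sorted for GFP. The shRNA groups carried a hairpin against Hnrnpa0 and the control groups a control vector, and each was taken before treatment and after 24 h in 2 nM 4-hydroxytamoxifen (4-OHT), which activates the fusion protein. Each of the 4 groups held 3 one-colour arrays (replicates A, B and C) from clones of its own vector, so vector and clone are compared together. Levels below are log2 intensity minus the array's 75th percentile, and differences are on the log2 scale. On each array, 50.3% to 55.7% of spots were well above background. All 6 monocyte and macrophage markers rose with 4-OHT in both vectors, and no megakaryocyte marker of 3 was well above background on any array. Between shRNA and control cells after 4-OHT, 2 of 3 stem and progenitor markers were called higher (median 0.49), as were 2 of 6 granulocyte markers, while 1 of 6 monocyte and macrophage markers was called lower and 5 of the 6 lay below 0. The part of these markers in the results on splicing genes was not tested.

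The slides did not cross the vectors. All 3 treated shRNA arrays and untreated shRNA replicate C were on slide 3. On slide 2 were untreated shRNA replicates A and B together with treated control replicates B and C. Treated control replicate A shared slide 1 with the 3 untreated control arrays. Within a treatment, no slide carried both vectors. Control replicate A after 4-OHT, alone of its group on slide 1, was the highest of the 3 in 42 of the 61 splicing genes with complete values, or 68.9%, against 49.8% over all genes. Its splicing genes lay a median of 0.181 above the other 2 arrays, against 0.0618 over all genes. Untreated shRNA replicate C, alone of its group on slide 3, showed no such excess. It was the highest in 44.3% of the splicing genes, against 45.6% over all genes. Its median above the other arrays was 0.0206, against 0.0405 over all genes. Because no slide carried both vectors within a treatment, the counts of splicing genes between vectors are also given with slide in the fit.

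Hnrnpa0 itself was low in the shRNA cells. Before 4-OHT its level was 1.93, 1.57 and 1.00 in shRNA cells, against 3.11, 3.06 and 2.98 in control cells. After 4-OHT it was 0.56, 0.65 and 0.46 in shRNA cells, against 2.60, 2.63 and 2.73 in control cells. No shRNA array overlapped a control array at either time. The difference was -1.54 ± 0.18 (SE, n = 3 against 3) before 4-OHT and -2.10 ± 0.18 after it, with limma adjusted p of 0.0127 and 0.00512. Replicate C of the shRNA cells before 4-OHT, the array on slide 3, had the lowest Hnrnpa0 of its group. With slide as a fixed block the differences were -1.38 at both times, with adjusted p of 0.114 and 0.0899, so in that fit the targeted gene was not called either.

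**Figure D1:**
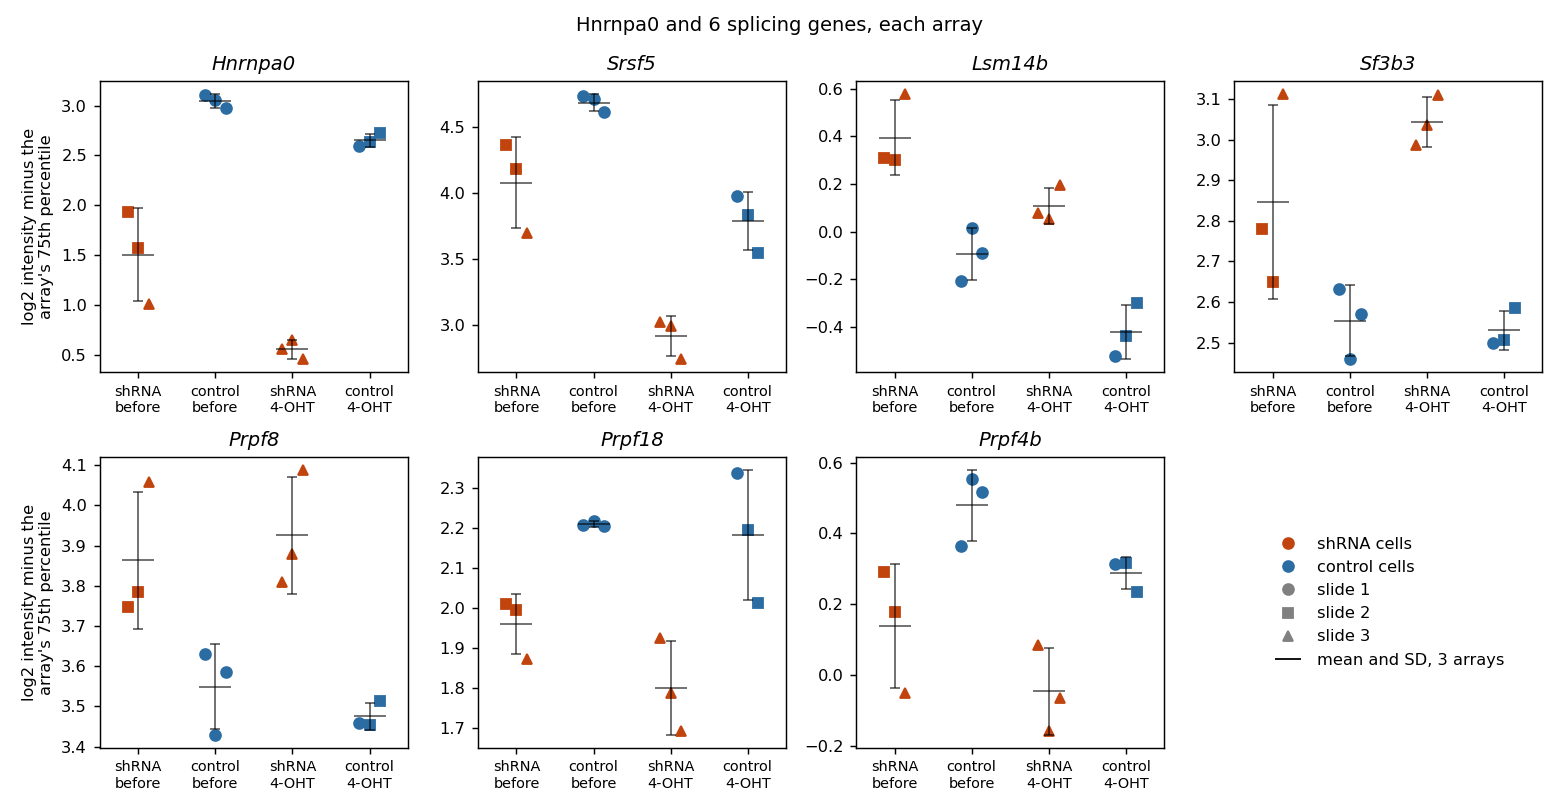
Level of Hnrnpa0 and of the 6 splicing genes with the largest vector difference among those called after 4-OHT, on the log2 scale relative to each array's 75th percentile. Each point is 1 array, its shape the slide, and bars are mean and SD of 3 arrays. The shRNA arrays of Srsf5 lie below the control arrays at both times, and those of Lsm14b, Sf3b3 and Prpf8 above them.

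Splicing genes differed between vectors in both directions and mostly by little. Before 4-OHT, 0 of 63 passed the limma threshold (adjusted p under 0.05 over all 15075 genes), where 0.378% of all genes did. Of the 63, 18 had an unadjusted p under 0.05, or 28.6%, where 22.3% of all genes did. With a trended and robust prior limma called 8, or 12.7%, where 4.72% of all genes passed. After 4-OHT, 12 passed, or 19.0%, where 16.6% of all genes did. Of these, 6 were higher in shRNA cells, where 7.83% of all genes were, and 6 were lower, where 8.79% were. With normexp background correction, and with scaling by the median, the split was 3 higher and 1 lower. In the mean of both times, 26 passed, or 41.3%, where 28.0% of all genes did. Of the 26, 10 were higher, where 12.4% of all genes were, and 16 were lower, where 15.6% were. All 12 genes called after 4-OHT were among the 26. The median difference of the 63 genes was -0.10 both before and after 4-OHT, where that of all genes was -0.03 before and -0.04 after. Of the 63, 11 were saturated on at least 1 array, where values are capped. They stay in all counts and medians of the 63, and their part in these was not tested.

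The differences at the 2 times share no array, but at both times vector was compared together with clone and slide. Agreement between the times can therefore not be read as repeatability of an effect of the vector alone. The sign was the same before and after 4-OHT in 54 of 63 splicing genes, or 85.7%, and in 77.1% of all genes. Across the 63 genes the 2 differences had a Pearson r of 0.894, against 0.556 over all genes. The genes of one array share its scaling and slide, and 11 of the 63 have capped values, so this is a description. The arrays of the 2 vectors did not overlap for 30 splicing genes before 4-OHT, where 32.5% of all genes did not, and for 28 after it, where 38.6% did not. For 19 genes they did not overlap at either time and in the same direction, where this held for 18.6% of all genes. Only 2 of the 63, Srsf5 and Lsm14b, differed by more than 0.5 in the mean of both times, or 3.17%, where 6.18% of all genes did.

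**Figure D2:**
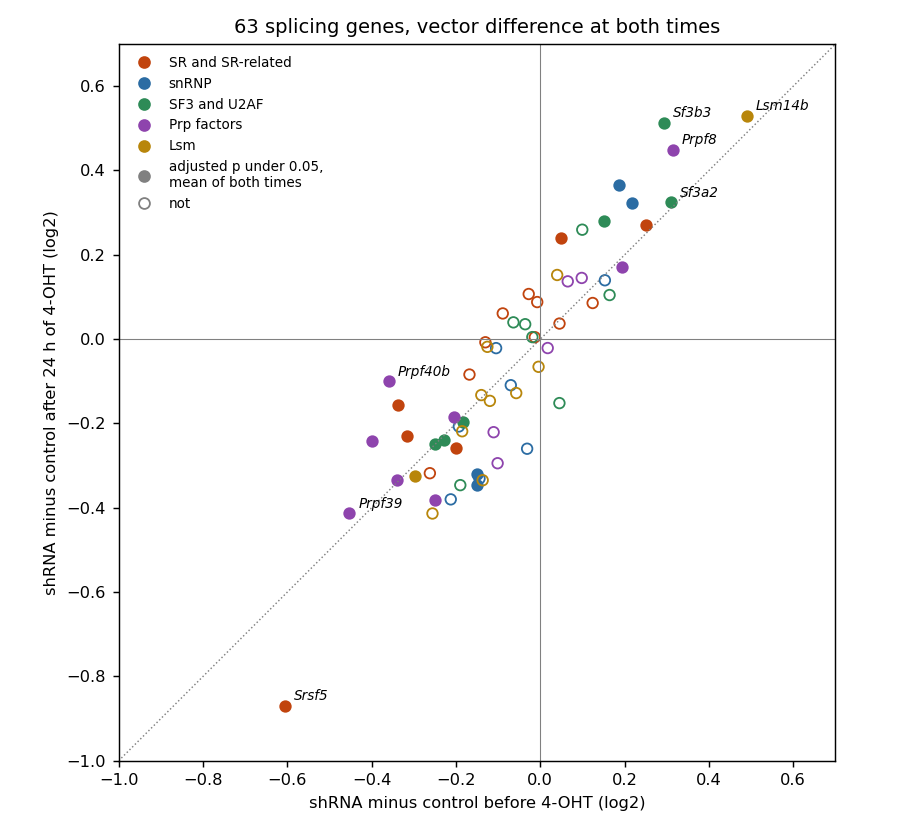
Difference between shRNA and control cells before 4-OHT (x) and after 24 h of 4-OHT (y), log2, for the 63 splicing genes, coloured by role. Filled points are the 26 with adjusted p under 0.05 in the mean of both times, and the dotted line marks equal differences. Most points lie near the line, between -0.5 and 0.6, and Srsf5 lies apart at -0.61 and -0.87.

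With slide as a fixed block, 0 of 63 splicing genes passed before 4-OHT, after it or in the mean of both times, where 0, 1 and 0 of all genes did. In that fit an unadjusted p under 0.05 stood beside 14, 2 and 5 of the 63, or 22.2%, 3.17% and 7.94%. Over all genes the shares were 16.7%, 6.06% and 11.5%. The counts in the mean of both times by role, by probe and for other gene lists, given below, are also 0 in that fit. With slide as a random block (correlation 0.386), 0 passed after 4-OHT and 0 in the mean of both times, where 0 and 40 of all genes did. The estimates moved as well: the median of the 63 genes in the mean of both times was -0.09 without slide and 0.04 with it as a fixed block. Of the 26 called genes, 22 kept their sign in that fit and 4, Scaf11, Snrpc, Snrpf and U2af1l4, changed it. That fit separates slide from vector only through the slides that hold 2 groups, and within a time vector and slide cannot be told apart.

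**Figure D3:**
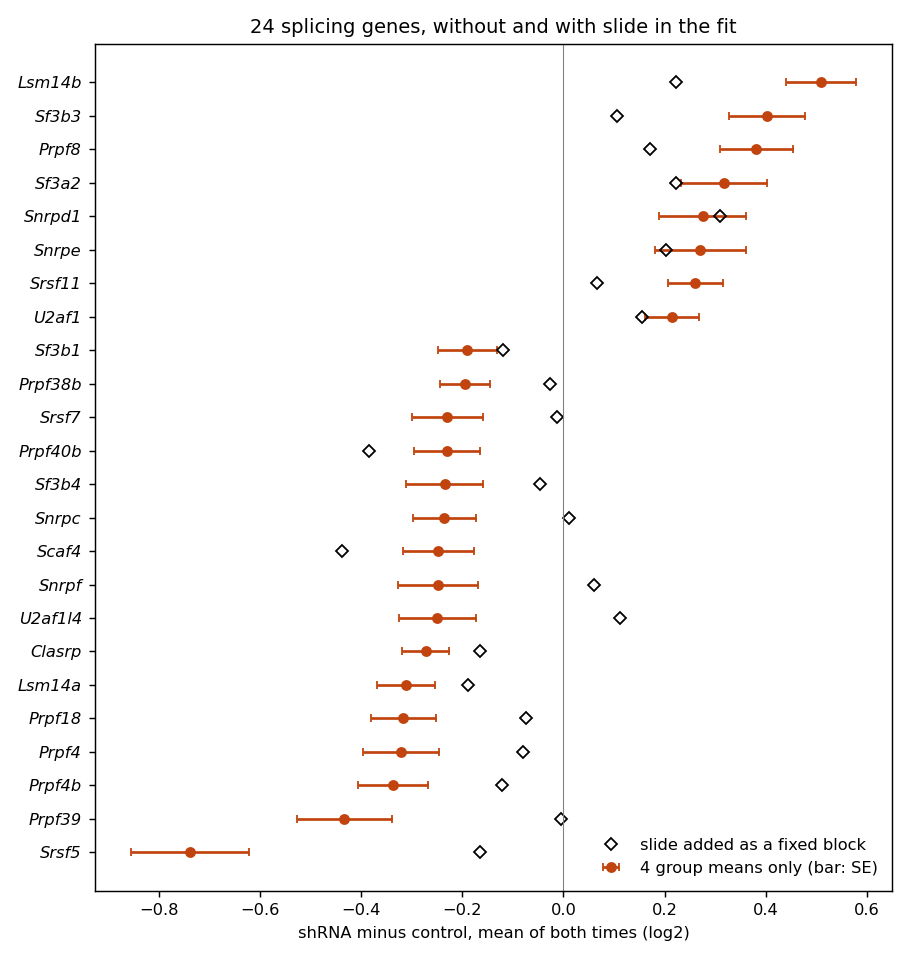
The 24 furthest from 0 of the 26 splicing genes called in the mean of both times, with the difference between shRNA and control cells (log2, bars are SE) from group means only and, as open diamonds, with slide as a fixed block. Most diamonds lie nearer to 0, such as Srsf5 at -0.17 and Prpf39 at 0.00, while Snrpd1 stays at 0.31.

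The counts also leaned on single arrays, as did the share of all genes called. After 4-OHT the 12 called genes became 4, 0 or 11 without control replicate A, B or C after 4-OHT, where 7.48%, 2.04% and 15.5% of all genes passed. They became 6, 2 or 2 without shRNA replicate A, B or C after 4-OHT, where 8.98%, 4% and 3.31% did. They became 6 without control replicate B or C before 4-OHT or shRNA replicate B before it, where 12.2%, 11.7% and 11.3% did. Over both times the 26 became 16 without shRNA replicate B before or after 4-OHT, where 22.3% and 21.2% of all genes passed. They became 17 without control replicate B or C before 4-OHT, control replicate B after it, shRNA replicate C before it or shRNA replicate A after it. In these fits 20.3% to 23.7% of all genes passed. Called in that mean under each of the 12 omissions were 16 genes, among them Srsf5, Srsf11, Clasrp, Lsm14a, Lsm14b, Prpf4, Prpf4b, Prpf8, Prpf18, Prpf38b, Prpf39, Sf3a2, Sf3b3, Snrpc and U2af1. No share over all genes is given beside these 16.

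Among the tested probes of the SR and SR-related genes, that of Srsf5 differed most between vectors in the fit without slide. With slide as a fixed block Scaf4, at -0.44, lay further from 0 in the mean of both times than Srsf5. Srsf5 encodes SRp40, a shuttling SR protein that binds exonic enhancers. Before 4-OHT its level was 4.36, 4.18 and 3.70 in shRNA cells, against 4.74, 4.71 and 4.62 in control cells. After 4-OHT it was 3.02, 2.99 and 2.74 in shRNA cells, against 3.98, 3.84 and 3.55 in control cells. All 3 shRNA arrays lay below all 3 control arrays at each time. The difference was -0.61 ± 0.17 before 4-OHT (limma adjusted p = 0.0974) and -0.87 ± 0.17 after it (limma adjusted p = 0.0156), a level 1.83-fold lower. An exact two-sided permutation of the vector labels within each time gave p = 0.005 for Srsf5, the smallest that the 400 relabellings allow. The test takes no account of slide or of the choice of Srsf5 for its difference on these arrays. Any gene without overlap at both times in one direction reaches this p, so it adds nothing to the lack of overlap. Of the 57 splicing genes it was run on, 18 reached the same p. Over all genes, 18.6% had no such overlap. Replicate C of the shRNA cells before 4-OHT was lowest in its group for Srsf5, as it was for Hnrnpa0. In the mean of both times Srsf5 differed by -0.74, and by -0.17 (limma adjusted p = 0.735) with slide as a fixed block. A second Srsf5 probe was marked as an outlier on 11 of 12 arrays. Once those spots were kept it differed by -0.56 after 4-OHT (limma adjusted p = 0.0789 over unfiltered probes).

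In the mean of both times, 6 of the 15 SR and SR-related genes passed, 2 higher and 4 lower, or 40%, where 28.0% of all genes did. Srsf11, an SR-related protein of the splice-site machinery, differed by 0.26 ± 0.05 and Scaf11, which binds SR proteins, by 0.14 ± 0.05. The tested probes of Srsf11 had opposite signs, and its call was lost with the mean over probes. Another Srsf11 probe, not tested, was marked as an outlier on 11 of 12 arrays. It differed the other way once those spots were kept, by -0.31 (limma adjusted p = 0.028 over unfiltered probes). Before 4-OHT Scaf11 overlapped between vectors, at 2.54, 2.65 and 2.76 in shRNA cells against 2.58, 2.63 and 2.59 in control cells. After 4-OHT it was 2.51, 2.50 and 2.55 in shRNA cells, against 2.25, 2.30 and 2.29 in control cells, without overlap. Clasrp, which binds the Clk kinases that phosphorylate SR proteins, differed by -0.27 ± 0.05, Scaf4, an SR-like factor that binds the RNA polymerase II tail, by -0.25 and Srsf7, an SR protein also used in RNA export, by -0.23. The Srsf7 probe was saturated on 2 of the 3 treated shRNA arrays and on 1 untreated control array, so its values there are capped. The calls of Scaf11, Scaf4 and Srsf7 were kept in 1, 5 and 3 of the 12 omissions. Srsf1, Srsf2 and Srsf3, the best known SR proteins, were not called, at -0.01, -0.29 and 0.04. Srsf2 lacked a value on 2 arrays.

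Of the 11 snRNP genes, 4 passed in the mean of both times, 2 higher and 2 lower, or 36.4%, where 28.0% of all genes did. Snrpd1 and Snrpe, which encode Sm ring proteins, differed by 0.28 ± 0.09 (limma adjusted p = 0.0377) and 0.27 ± 0.09 (limma adjusted p = 0.0476). Snrpf, another Sm protein, differed by -0.25 ± 0.08 (limma adjusted p = 0.0406), and Snrpc, the C protein of the U1 snRNP, which contacts the 5′ splice site, by -0.24 ± 0.06 (limma adjusted p = 0.02). Snrpc after 4-OHT was 4.69, 4.59 and 4.65 in shRNA cells, against 5.17, 4.94 and 4.79 in control cells, which did not overlap. The highest of those control values, like that of Snrpf at 5.28, came from replicate A on slide 1. Both probes were saturated on 2 of the 3 treated shRNA arrays, where their values are capped. The calls of Snrpd1, Snrpe and Snrpf were each kept in 2 of the 12 omissions. With slide as a fixed block Snrpf was at 0.06, the sign of Snrpd1 and Snrpe. Snrnp70 and Snrpg were saturated on all 12 arrays, as were Lsm4 and Sf3a3 wherever measured, so no difference is given for these. Snrpa, the A protein of the U1 snRNP, and Snrpb, a core Sm protein, were not called, at -0.20 and -0.09.

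The SF3 and U2AF genes were split evenly, with 3 higher and 3 lower of 13 in the mean of both times, or 46.2%, where 28.0% of all genes passed. Sf3b3, a scaffold subunit of SF3b, was 2.78, 2.65 and 3.11 in shRNA cells before 4-OHT, against 2.63, 2.46 and 2.57 in control cells. With 4-OHT it was 2.99, 3.04 and 3.11 in shRNA cells, against 2.50, 2.51 and 2.59 in control cells. The shRNA arrays lay above the control arrays at both times, and the difference after 4-OHT was 0.51 ± 0.11 (limma adjusted p = 0.0183). Sf3a2 differed by 0.32 ± 0.08 and U2af1, the U2AF subunit that reads the 3′ splice site AG, by 0.21 ± 0.05 in the mean of both times. With outlier spots kept, another U2af1 probe stood in for this one and differed by -0.13. Sf3b1, the branch-site subunit often mutated in human myelodysplasia, differed by -0.19 ± 0.06, U2af1l4 by -0.25 and Sf3b4 by -0.23. These calls were kept in 5, 4 and 2 of the 12 omissions. The tested probes of Sf3b1 had opposite signs, and its call was lost with the mean over probes. Sf3a1 at 0.18 and U2af2 at 0.13 did not pass.

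Among the 13 Prp genes, 8 passed in the mean of both times, 2 higher and 6 lower, or 61.5%, where 28.0% of all genes did. Prpf8, the large U5 protein at the catalytic centre, was 3.75, 3.78 and 4.06 in shRNA cells before 4-OHT, against 3.63, 3.43 and 3.58 in control cells. After 4-OHT it was 3.81, 3.88 and 4.09 in shRNA cells, against 3.46, 3.45 and 3.51 in control cells. The shRNA arrays were the higher ones at both times, by 0.31 before 4-OHT and by 0.45 ± 0.10 after it (limma adjusted p = 0.0218). On the lower side, Prpf39 differed by -0.43 ± 0.09, Prpf4b, a kinase of the tri-snRNP, by -0.34, Prpf4, a U4/U6 protein, by -0.32 and Prpf18, a second-step factor, by -0.32. Prpf40b differed by -0.23 and Prpf38b by -0.19. The call of Prpf40b was kept in 6 of the 12 omissions. Prpf4b and Prpf38b each also had a probe called higher. The tested probes of Prpf4 and those of Prpf39 had opposite signs, and the call of Prpf4 was lost with the mean over probes. Prpf18 after 4-OHT was 1.92, 1.79 and 1.69 in shRNA cells, against 2.34, 2.20 and 2.01 in control cells. These did not overlap, though the gap between the groups was small beside the spread in each. Prpf19, a ubiquitin ligase of the spliceosome, at 0.10, and Prpf31, a U4/U6 protein, at -0.20, did not pass; the Prpf31 probe was saturated on some arrays of 3 groups.

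Of the 11 Lsm genes, 2 passed in the mean of both times, or 18.2%, where 28.0% of all genes did: Lsm14b was higher and its paralog Lsm14a lower. Lsm14a and Lsm14b encode RNA-binding proteins of cytoplasmic P bodies rather than of the Lsm ring of U6. Lsm14b was 0.31, 0.30 and 0.58 in shRNA cells before 4-OHT, against -0.21, 0.01 and -0.09 in control cells. With 4-OHT it was 0.08, 0.05 and 0.20 in shRNA cells, against -0.53, -0.44 and -0.30 in control cells. All shRNA arrays were above all control arrays at each time, by 0.53 ± 0.10 after 4-OHT (limma adjusted p = 0.0143). Its other tested probe was not called and lay on the other side, at -0.20 before 4-OHT and -0.09 after it, and the mean over both probes, at 0.22 after 4-OHT, missed the threshold. Lsm14a after 4-OHT was 1.91, 1.95 and 1.72 in shRNA cells, against 2.20, 2.22 and 2.14 in control cells, a difference of -0.32 ± 0.08 (limma adjusted p = 0.0287). Lsm1, of the cytoplasmic decapping ring, and Lsm2, which serves that ring and the U6 ring, were not called in the mean of both times, at -0.09 and 0.10.

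With 4-OHT itself, most of the splicing genes that passed the test fell, a lean that quantile normalization turned in shRNA cells. In shRNA cells 9 of 63 passed, or 14.3%, where 38.3% of all genes did: 1 higher, where 16.5% of all genes were, and 8 lower, where 21.8% were. After quantile normalization that split was 4 higher and 3 lower, with normexp 0 and 3, and with median scaling 0 and 2. In control cells 15 passed, or 23.8%, where 40.5% of all genes did: 3 higher, where 17.5% of all genes were, and 12 lower, where 23.0% were. After quantile normalization that split was 1 and 10, and with normexp 0 and 7. A change above 1 on the log2 scale was seen for 1 splicing gene in shRNA cells, where 10.1% of all genes had one, and for 0 in control cells, where 10.9% did. The median change of the 63 genes was -0.11 in shRNA cells and -0.12 in control cells, where that of all genes was -0.08 and -0.07. The shares of called genes moved with single arrays: the 9 became 3 to 5 without control replicate C before 4-OHT, control replicate B after it, or shRNA replicates A or B of either time, and 14 without control replicate A after 4-OHT. Of all genes, 30.8% to 36.2% passed where the 9 became 3 to 5, and 42.7% where they became 14. The 15 became 9 without control replicates B or C before 4-OHT or control replicate B after it, where 35.5%, 34.4% and 34.2% of all genes passed. With slide as a fixed block, 5 passed in shRNA cells, all lower, where 30.6% of all genes passed, and 16 in control cells, 8 higher and 8 lower, where 36.3% did.

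Srsf5 fell by 1.16 ± 0.17 with 4-OHT in shRNA cells (limma adjusted p = 0.000267) and by 0.90 ± 0.17 in control cells (limma adjusted p = 0.00138). Within slide 3, where 1 shRNA array before 4-OHT meets the 3 after it, Srsf5 differed by -0.78, and that single array was the lowest of its group. Within slide 1, where 1 control array after 4-OHT meets the 3 before it, Srsf5 differed by -0.71. These fits, added after seeing the data, take the spread of the single array to be that of the other 3. They called 1 of the 63 genes within slide 3, where 17.5% of all genes passed, and 4 within slide 1, where 23% did.

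Passing in both vectors were 8 genes: Prpf3 was higher after 4-OHT, and Clasrp, Lsm14b, Sf3b1, Snrpa, Srsf4, Srsf5 and Zrsr2 were lower. No share over all genes is given beside these 8. Once slide was a fixed block, Clasrp, Prpf3, Sf3b1, Srsf4 and Zrsr2 were not called in shRNA cells. Sf3b1 and Srsf4 were then not called in control cells either. Sf3b1 changed by -0.33 in shRNA cells and by -0.32 in control cells, and Zrsr2, which recognises the 3′ splice site of minor introns, by -0.26 and by -0.33. Prpf3, a U4/U6 protein, changed by 0.18 in shRNA cells and by 0.22 in control cells. Called in shRNA cells alone was Snrpb2, the U2 protein U2B″. Its probe was saturated on both treated shRNA arrays that gave it a value, so its difference is not given here. Called in control cells alone were 7 genes, among them Prpf40b at -0.49, Scaf11 at -0.32, Lsm6 at 0.35 and Srek1 at 0.21. These 7 likewise have no share over all genes beside them, and Srek1 was not called with slide as a fixed block. The test of the difference itself called no splicing gene. Without slide, the 4-OHT response in shRNA cells minus that in control cells called 0 of 63 splicing genes and 0% of all genes. Of the 63, 0 had an unadjusted p under 0.05 there. With slide as a fixed block, 0 of the 63 were called, where 0.0133% of all genes were. In that fit 14 of the 63 had an unadjusted p under 0.05, a count with no share over all genes beside it. The ends of the fit without slide were Srsf5 at -0.26 and Prpf40b at 0.26.

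**Figure D4:**
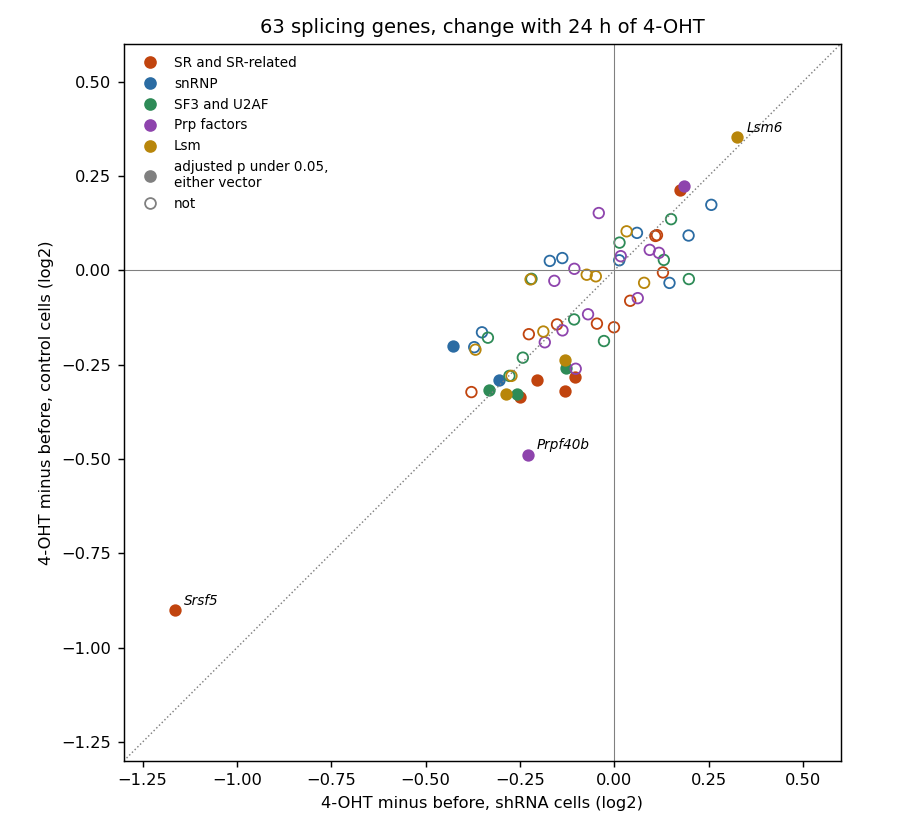
Change with 24 h of 4-OHT in shRNA cells (x) and in control cells (y), log2, for the 63 splicing genes, coloured by role. Filled points are the 16 with adjusted p under 0.05 in either vector, and the dotted line marks equal change. Srsf5 lies alone at -1.16 and -0.90, and the others lie between -0.5 and 0.4.

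Probes of 1 gene did not always give the same difference. Transcripts of splicing genes are known to come in several forms, and whether the probes read different forms was not tested. Fitted probe by probe, 41 of 110 probes of splicing genes passed in the mean of both times, 16 higher and 25 lower, where 29.2% of all 22381 probes did. Of the 110, 0 passed with slide as a fixed block, where 0 of all probes did. Of 35 genes with more than 1 tested probe, 20 had a called probe. In Prpf8, Prpf18, Scaf11 and Snrpf every tested probe was called in one direction. In Prpf38b, Prpf4b and Sf3b3, probes were called in opposite directions, in Sf3b3 at 0.40 and -0.29, and 15 of the 35 genes had probes of opposite sign. These counts have no share over all genes with more than 1 tested probe beside them. Whether they are particular to splicing genes was not tested.

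Among the 110 probes, the vector difference furthest from 0 in the mean of both times lay in a second Srsf1 probe, which the gene-level test does not use. It was 0.47, -0.06 and -1.10 in shRNA cells before 4-OHT, against 0.98, 0.73 and 0.70 in control cells, with replicate C again lowest. The treated arrays were at -0.93, -0.84 and -1.52 in shRNA cells, against 0.60, 0.58 and 0.35 in control cells, a difference of -1.61 ± 0.33 (limma adjusted p = 0.0176 over all probes). Averaged over both times it differed by -1.32, while the tested Srsf1 probe differed by -0.01. With slide as a fixed block the second probe was not called in that mean, as none of the 110 were, and its estimate in that fit is not given. Tra2b, an SR-like activator of exon inclusion, showed the same split: its second probe differed by -0.38 ± 0.07 in the mean of both times (limma adjusted p = 0.00584) and the tested one by -0.07. That Tra2b probe also fell by 0.89 with 4-OHT in shRNA cells and by 0.95 in control cells, where the tested one was at 0.04 and -0.08.

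The first 30 of the 60 bases of the Srsf1 and Tra2b probes are shown so that the transcript each one reads can be looked up; positions are those of the array design (mm7). The second Srsf1 probe lies at chr11:88119053-88119112 and the tested one downstream at chr11:88120956-88121015, both on the plus strand. The second Tra2b probe lies at chr16:21910363-21910422 and the tested one at chr16:21897599-21897658, on the minus strand.
Srsf1, second probe, -1.32: agtttgtacggaaagaagatatgacgtatg
Srsf1, tested probe, -0.01: ataggatagggaggatgaattaccaggatt
Tra2b, second probe, -0.38: gtcccacttgtagaatattgagcaatttgt
Tra2b, tested probe, -0.07: cttgccatattcaatatacctgcgattaag

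**Figure D5:**
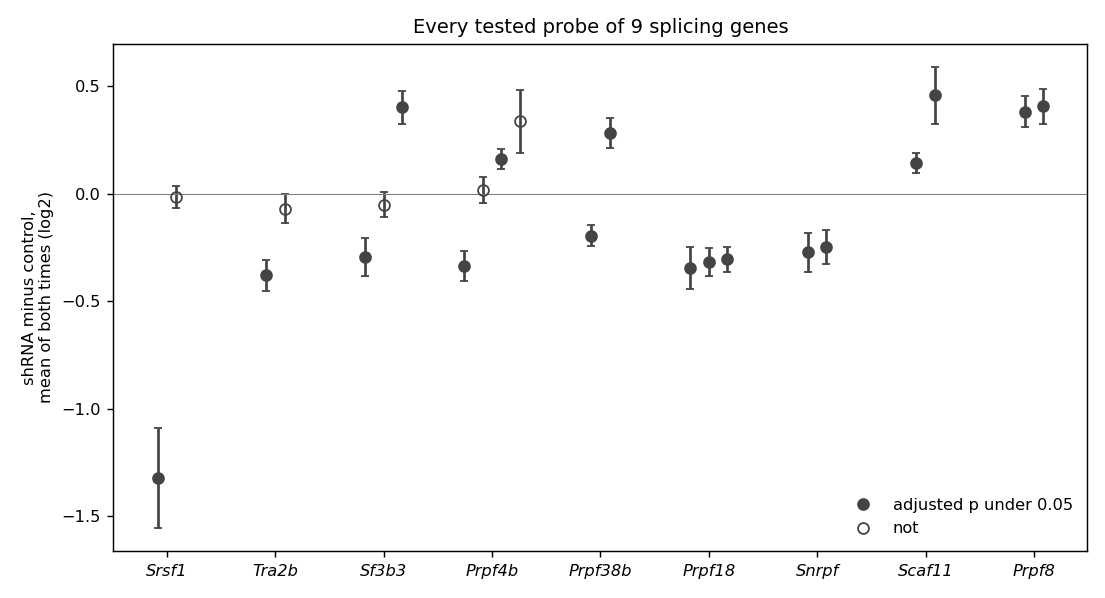
Difference between shRNA and control cells in the mean of both times (log2, bars are SE) for every tested probe of 9 splicing genes, filled where adjusted p over all probes was under 0.05. The second Srsf1 probe lies at -1.32 beside a tested probe near 0, Sf3b3, Prpf4b and Prpf38b have called probes on both sides of 0, and the probes of Prpf18, Snrpf, Scaf11 and Prpf8 lie on one side.

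Promoters were searched for 5 motifs, ETS letters among them because 4-OHT activates an ETS factor, PU.1, in all treated cells. RefSeq promoters (GRCm38.p6, 250 bases before to 50 after a start) were at hand for 58 of the 67 genes. The letters CCGGAAG, an ETS-type motif, stood on either strand in 21 of the 58, or 36.2%, where 19.6% of 9774 tested genes and 9.93% of all 27025 genes in the table held them. GAGGAAG, closer to the PU.1 type, stood in 13.8% of the splicing genes and in 15.5% of tested genes, and no site counts for both sets of letters. Of 3 further motifs searched, out of 5 in all, the E-box CACGTG stood in 8.62% of the splicing genes and 11.5% of tested genes, the GC box GGGCGG in 70.7% and 65.2%, and TATAAA in 8.62% and 9.88%. By call in the mean of both times, CCGGAAG stood in 4 of 8 higher genes, 5 of 14 lower genes and 12 of 32 genes not called. The 150 bases before the start are shown for Srsf5 and for one called gene in each direction, each of which holds the letters, with CCGGAAG on either strand in capitals. Srsf5 lies at chr12:80945349-80945498 on the plus strand, Sf3a2 at chr10:80798585-80798734 on the plus strand and Snrpc at chr17:27839937-27840086 on the plus strand. Srsf5 holds the letters in both orientations.
Srsf5, lower: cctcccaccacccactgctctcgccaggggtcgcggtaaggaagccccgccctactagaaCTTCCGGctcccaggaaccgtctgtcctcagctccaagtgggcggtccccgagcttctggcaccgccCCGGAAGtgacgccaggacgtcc
Sf3a2, higher: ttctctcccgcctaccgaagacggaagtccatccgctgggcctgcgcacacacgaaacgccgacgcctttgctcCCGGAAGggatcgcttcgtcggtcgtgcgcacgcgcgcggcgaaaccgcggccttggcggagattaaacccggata
Snrpc, lower: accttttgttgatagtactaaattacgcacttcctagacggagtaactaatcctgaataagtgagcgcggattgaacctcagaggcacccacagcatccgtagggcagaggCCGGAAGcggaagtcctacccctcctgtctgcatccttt

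Genes of the wider splicing machinery, in lists chosen beside the 63, were also split. Of 69 other spliceosome genes tested, 10 were higher and 14 lower in the mean of both times, or 34.8%, where 28.0% of all genes passed. Of 47 splicing regulators, SR kinases and exon junction genes, 8 were higher and 9 lower, and of 15 genes of the SMN complex, which loads Sm proteins onto snRNAs, 3 were higher and 2 lower. Of 21 other hnRNP genes, 1 was higher and 5 lower, or 28.6%, with a median of -0.21. Of the 21, 20 were below 0, as were 55.5% of all genes, whose median was -0.03. In the fit with slide as a fixed block, 14 of the 21 were below 0 and the median was -0.01. In all 4 lists, as in the 63 genes, 0 passed before 4-OHT.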

How the data were processed

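RNA of 12 PUER samples was measured on one-colour Agilent mouse arrays (design 014868, probe positions on mm7). Per the file headers, intensities were read with Feature Extraction 9.5.3.1, which subtracts background (the submitters' processing notes give version 9.5), and the authors' deposited value table holds the same intensities to within 0.497% on every array. Processed intensity was divided by the array's 75th percentile (1196 to 2583) and log2 transformed; control spots and spots marked as outliers were left out. Probes were named through a transcript identifier (23075), a current symbol (6587), an older symbol (3072) or the scanner file's own name (8440). Probes well above background on at least 3 of 12 arrays, with values on at least 2 arrays of each group, were kept, and 1 probe of highest mean stood for each of 15075 genes. One limma model (3.58.1, R 4.3.3; lmFit and eBayes over the 4 groups) gave all comparisons, with Benjamini-Hochberg adjustment over all genes. The code was tested on simulated data.

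Labels call the replicates unique clones of each vector. The small number of arrays limits the precision. Members and gene lists were chosen with earlier results of these data known. Named were all members called between vectors, the 3 furthest rises and falls of each vector comparison, the 8 furthest called changes each way with 4-OHT, well-known members, and genes whose probes were called in opposite directions. Alternatives were quantile normalization, normexp (offset 50), median scaling, 2 other filters, the value table, the mean over probes, slide, clone or replicate letter as a block, pairwise fits, another variance prior and leaving out each array. Keeping outlier spots and comparing within a slide were added after seeing the data. For single probes with outlier spots kept, p was adjusted over probes other than controls, without the filter on dim and incomplete probes. Probe sequences came from the array files and promoters from RefSeq (GRCm38.p6). Values of 1 called gene and 1 probe sequence are not reported here.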

Additional observations from a re-analysis of the deposited data

How the results depend on the processing

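Log2 values are used throughout, and counts are of splicing genes past the threshold. Between vectors before 4-OHT the count of 0 became 3 after quantile normalization, 2 with the filter on all 12 arrays and 8 with a trended and robust prior. Of all 15075 genes, 57 passed in the main fit, 393 after quantile normalization and 712 with that prior. With the filter on all 12 arrays 314 of 12409 genes passed. The median (-0.101) became 0.113 with slide fixed and 0.00793 with slide random. After 4-OHT the count of 12 became 7 (quantile), 4 (normexp), 4 (median scaling), 2 (no filter) and 7 (mean over probes). It became 4 (only the 2 groups) and 0 (slide fixed or random). Of all 15075 genes, 2506 passed in the main fit, 1697 (quantile), 1741 (normexp), 1264 (median scaling) and 1786 (mean over probes). The number was 1106 (only the 2 groups), 1 (slide fixed) and 0 (slide random), and 358 of 27395 with no filter. The median (-0.100) became -0.0093 (quantile), -0.0402 (median scaling) and 0.000876 (slide fixed). In the mean of both times the count of 26 became 13 (median scaling), 16 (no filter) and 0 (slide fixed or random). Of all 15075 genes, 4216 passed in the main fit, 2651 (median scaling), 0 (slide fixed) and 40 (slide random). With no filter 3775 of 27395 passed. The median (-0.0896) became 0.0449 (slide fixed). With 4-OHT in shRNA cells the count of 9 became 3 (normexp), 2 (median scaling), 4 (no filter), 5 (slide fixed) and 14 (clone random, correlation 0.188). Of all 15075 genes, 5774 passed in the main fit, 4131 (normexp), 4745 (median scaling), 4620 (slide fixed) and 6575 (clone random). With no filter 4828 of 27395 passed. The median (-0.106) became 0.0112 (quantile). In control cells the count of 15 became 7 (normexp), 9 (no filter) and 9 (only the 2 groups). Of all 15075 genes, 6104 passed in the main fit, 4318 (normexp) and 5387 (only the 2 groups). With no filter 6449 of 27395 passed. The median (-0.116) became -0.0548 (quantile, and slide random) and 0.00109 (slide fixed, and within slide 1). For the difference of the 4-OHT responses the count stayed at 0 in every setting run, and the median (0.0064) became 0.0714 (quantile) and -0.127 (slide fixed). Hnrnpa0 fell short of the threshold before 4-OHT at -1.38 (slide fixed), -1.57 (slide random) and -1.54 (only the 2 groups), after it at -1.38 and -1.81, and in the mean at -1.38 (slide fixed).

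Signs turned for single genes. After quantile normalization Snrpc was at 0.0504 between vectors after 4-OHT, Snrpb2 at 0.0238 with 4-OHT in shRNA cells, and the responses of Snrpb2 and Lsm7 differed by 0.16 and 0.0467. The probes of Snrpc, Snrpb2 and Lsm7 were saturated on some arrays, where their values are capped, so these values show only that the sign turned. Prpf4b turned with normexp (0.28 after 4-OHT, 0.19 in the mean) and with the mean over probes (0.19 and 0.045), as did Prpf38b with the mean over probes (0.0435). With slide fixed, Prpf39 after 4-OHT was at 0.0784, Scaf11, Snrpc, Snrpf and U2af1l4 in the mean at -0.0046, 0.0105, 0.0603 and 0.112, and the responses of Sf3b3 differed by -0.0132. With outlier spots kept, U2af1 was at -0.20 after 4-OHT and -0.13 in the mean. The cause was not tested for these turns, except that another probe stood for U2af1.

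Leaving out each array gave counts of 0 to 3 before 4-OHT (medians -0.127 to -0.0508), 0 to 16 after it (-0.126 to 0.00126), 16 to 28 in the mean (-0.147 to -0.0503), 3 to 14 with 4-OHT in shRNA cells (-0.128 to -0.0919), 9 to 20 in control cells (-0.165 to -0.039) and 0 for the difference of responses (-0.0126 to 0.0689). Hnrnpa0 ranged over -1.757 to -1.296 before 4-OHT, past the threshold in 9 of 12 fits, -2.15 to -2.05 after it and -1.93 to -1.70 in the mean. Samples of the same letter had correlated deviations of -0.0872 to 0.304, so the letters were not taken to pair samples. A replicate block gave 2 calls before 4-OHT, kept 10 of 12 calls after it and 24 of 26 in the mean. The deposited value table kept 12 of 12 and 25 of 26.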

Other observations

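Lsm10, Snrpd2 and Srsf9, which were not tested because of outlier spots, had values when those spots were kept, a choice made after seeing the data. Between shRNA and control cells after 4-OHT, Srsf9 differed by -0.39 (limma adjusted p = 0.0733), Lsm10 by -0.48 (limma adjusted p = 0.0683) and Snrpd2 by -0.13 (limma adjusted p = 0.485). In the mean of both times, Srsf9 differed by -0.32 (limma adjusted p = 0.0245) and Lsm10 by -0.37 (limma adjusted p = 0.0291). Adjustment here was over unfiltered probes rather than over the tested genes, and slide was not in this fit. Spots were marked on 10 arrays for Srsf9, 8 for Lsm10 and 2 for Snrpd2.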
